A study of Homo sapiens with 40 samples.

Results

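The exons described here belong to Rab GTPases and to the proteins that switch them on, switch them off or bind them. Members were all rows of the 5 exon tables whose Ensembl identifier has a symbol starting with RAB and a digit, TBC1D, DENND or RABGAP. The rule uses gene names alone, but it was chosen with earlier results of these data known. This gave 115 exon events in 55 genes, of 16378 events in 6976 Ensembl genes, and the name table holds 190 symbols that match the rule. An event is 1 exon together with the junction that skips it, so an exon can be listed more than once. Roles were taken from gene names alone, so exchange factor and activating protein below name a family and not a shown activity. By these, 21 genes were RAB GTPases (44 events) and 10 were named as DENN-domain exchange factors (23 events). Another 17 were named as TBC-domain or RABGAP activating proteins (35 events) and 7 were other RAB-named partners (13 events). Of these partners, RAB5IF carries the name of a Rab interactor and is not itself a Rab.

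Cells were the human embryonic kidney line HEK293 Flp-in T-REx with an integrated pcDNA5 transgene for Amr Rpb1, the large subunit of RNA polymerase II in a form that resists α-amanitin. The transgene was WT or carried R749H, H1106Y or E1126G. R749H and H1106Y are known as slow forms of the polymerase and E1126G as a fast one. All groups, WT included, had doxycycline to induce the transgene and 42 h of α-amanitin to block the endogenous enzyme, so no group ran on its own polymerase. WT, R749H and E1126G were sequenced by RNA-seq, with 2 libraries a group. RASL-seq, in which pairs of probes are ligated at chosen exon junctions and counted, had 3 libraries each of WT, R749H, H1106Y and E1126G. Per the labels' protocols, the RNA-seq libraries came from biological replicates, and nothing used here says whether a line is 1 clone.

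Rab proteins are small GTPases that mark the membranes of the secretory and endocytic pathways. Bound to GTP they recruit effectors such as tethers and motors, and bound to GDP they are inactive. Typically, DENN-domain proteins load Rabs with GTP, and TBC-domain proteins speed the hydrolysis that turns them off. Skipping an exon whose length is not a multiple of 3 shifts the reading frame where the exon is coding.

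Every level below is the authors' value for all libraries of a group together, so no standard deviation or value per library can be given and the sequencing depth is unknown. Inclusion is the share that include the exon among reads that include it or use the event's own skipping junction. It was computed from the ratios in the authors' deposited tables, and the same exon can have different levels against different junctions. An event was called changed when the authors' p-value, adjusted over all events of its table by the Benjamini-Hochberg method, was under 0.05. No source used here says whether the authors' p-values carry the spread between libraries. Within an assay every mutant was compared with the same WT libraries, so calls that mutants share are not independent observations. The tables hold no expression levels, so the identity of the cells was not checked. No exon sequence is printed, because a genome of the files' build was not used here. Coordinates are those of the GRCh37 build.

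Rab-family exons were called about as often as any other exon in RNA-seq. In R749H cells 15 of 96 member events changed (15.6%), against 15.1% of all 14358 events, with 5 higher (7.07% of all events) and 10 lower (8.04% of all events). In E1126G cells 7 of 97 changed (7.22%), against 6.48% of all 14650 events, 1 higher (2.2% of all) and 6 lower (4.27% of all). On RASL-seq the counts were 8 of 16 in R749H (44.1% of all events), 9 of 12 in H1106Y (61.9%) and 5 of 19 in E1126G (47.5%). The R749H calls were 4 higher and 4 lower (24% and 20.1% of all events), and the H1106Y calls were 4 higher and 5 lower (23.7% and 38.2%). Those of E1126G were 2 higher and 3 lower (13.9% and 33.6%). With so few members on RASL-seq these shares are descriptions, and whether the family differs from all events was not tested. The median log2 change over all events was -0.33 in H1106Y and -0.37 in E1126G on RASL-seq, against -0.09 for the members in both. Every called member of these 2 comparisons stayed on the same side when its direction was taken around that median.

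**Figure D1:**
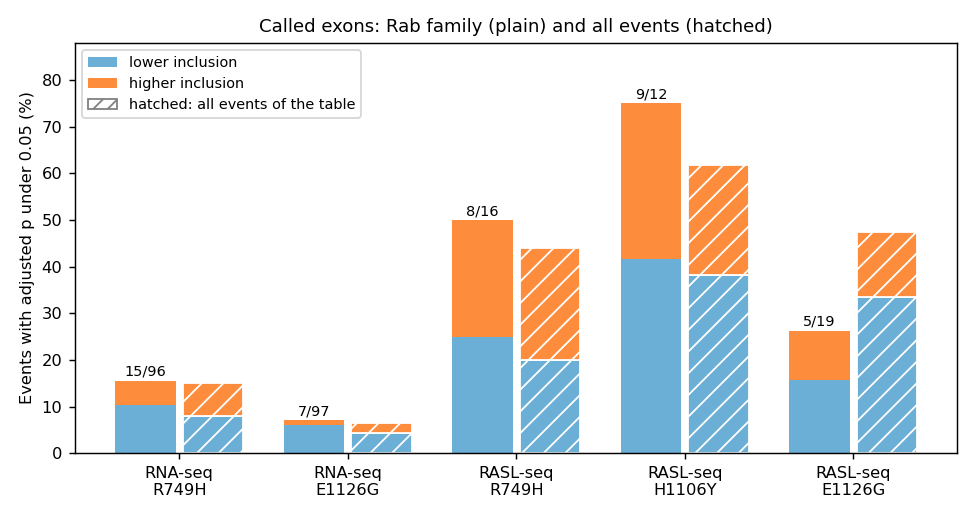
Share of exon events with an adjusted p under 0.05, in percent, in each comparison with WT. Plain bars are Rab-family events, labelled with called and listed events, and hatched bars are all events of the table, split into lower and higher inclusion. The plain bar lies close to the hatched one in both RNA-seq comparisons, and in E1126G on RASL-seq it reaches 26.3% against 47.5%.

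Over all comparisons 29 of the 115 events, in 22 genes, were called at least once (25.2%), against 24.1% of all 16378 events, and 86 never were. Of the 96 member events in R749H RNA-seq, 45 were included at more than 95% in WT cells, and the median WT inclusion was 94.6% against 90.5% for all events. Of the 108 member exon events on RNA-seq, 51 (47.2%) had a length that is a multiple of 3, against 43.5% of all events, and the median length was 113.5 nt against 109 nt. On RASL-seq 7 of 20 member exons (35%) were multiples of 3, against 55.9% of all. On RNA-seq 9 of the 15 R749H calls and 3 of the 7 E1126G calls moved by 10 percentage points or more, against 66.1% and 63.6% of all called events. On RASL-seq 2 of 8 in R749H, 4 of 9 in H1106Y and 2 of 5 in E1126G did, against 37.9%, 53% and 37.7%.

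Among the GTPases, RAB1A, which acts in transport from the endoplasmic reticulum to the Golgi, had the largest log2 change of any called member on RNA-seq. Its 132-nt exon (chromosome 2, 65316073 to 65316204, minus strand) was included at 97.9% in WT, 66.9% in R749H and 92.5% in E1126G cells in the authors' deposited tables. Both mutants were below WT, with a log2 change of -4.51 in R749H (adjusted p = 5e-20) and -1.89 in E1126G (adjusted p = 0.039). The E1126G call was lost with the Benjamini-Yekutieli adjustment, which allows for any dependence between events. The junction that skips this exon also passes over the 96-nt exon upstream of it (65318117 to 65318212). That 96-nt exon, measured against a junction that skips it alone, went from 98.9% in WT to 90.4% in R749H (adjusted p = 1.2e-08) and stood at 97.5% in E1126G (adjusted p = 0.37) in the authors' deposited tables. Another 96-nt exon of RAB1A lies further upstream (65325105 to 65325200), and it was included at 96.9% to 98.6% in all 3 genotypes with neither of its rows called. The first 96-nt exon was also listed against a junction that skips both 96-nt exons, and by that measure it stood at 97.3% in WT, 97.1% in R749H and 98.5% in E1126G and was not called. The called exons lay next to each other, and all 3 lengths are multiples of 3.

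RAB28, a Rab of the cilium, had a fall in an exon that was more often skipped than included in WT, against its listed skipping junction. The 95-nt exon (chromosome 4, 13371495 to 13371589) stood at 40.2% in WT, 13.3% in R749H and 37.3% in E1126G cells in the authors' deposited tables. Only the R749H value was called, with a log2 change of -2.14 (adjusted p = 9.8e-05), and the E1126G value was not (adjusted p = 0.89). The 130-nt exon of the same gene went from 94.7% to 88.3% in R749H and 92.7% in E1126G and was called in neither (adjusted p = 0.18 and 0.79).

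Exons of RAB5C and RAB35 rose in R749H. The 117-nt exon of RAB5C, a Rab of early endosomes, had low inclusion, at 4.8% in WT, 15.5% in R749H and 6.4% in E1126G cells in the authors' deposited tables. The R749H log2 change was 1.86 (adjusted p = 4.2e-04). The 125-nt exon of RAB35, which acts in endosomal recycling, went from 95.2% to 99.7% in R749H (log2 change 4.26, adjusted p = 4.8e-04) and to 96.6% in E1126G (adjusted p = 0.73) in the authors' deposited tables. Exons of RAB34 and RAB18 fell from near-complete inclusion in E1126G and were not called in R749H, and the mutants did not differ by the approximate test for either (adjusted p = 0.76 and 0.37). A 92-nt exon of RAB34, a Rab needed for cilium formation, fell from 96.5% to 88.1% (adjusted p = 0.0030) and stood at 93.8% in R749H (adjusted p = 0.42) in the authors' deposited tables. Against a second skipping junction the same exon was at 98.7% in WT, 94.1% in R749H and 95.8% in E1126G and was called in neither (adjusted p = 0.099 and 0.36). A 62-nt exon of RAB18, found on lipid droplets and the endoplasmic reticulum, fell from 99.1% to 96.6% (adjusted p = 0.037) against 99.2% in R749H in the authors' deposited tables, a call lost with the Benjamini-Yekutieli adjustment.

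**Figure D2:**
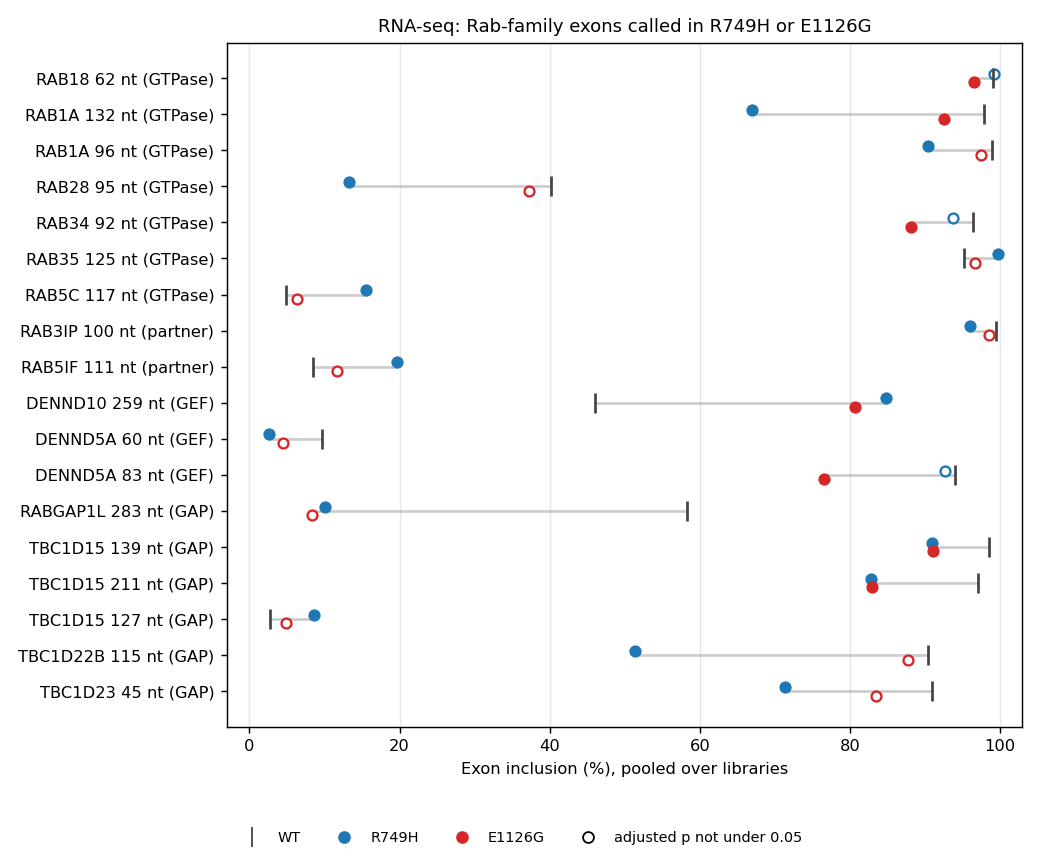
Inclusion in percent of the 18 Rab-family exon events called in R749H or E1126G on RNA-seq, by gene, exon length and role. The bar marks WT and the circles the mutants, filled where the adjusted p was under 0.05. RAB1A, TBC1D22B and RABGAP1L show the widest falls and DENND10 the widest rise.

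Of the exchange factors, DENND10, a DENN-domain protein of late endosomes, gained an exon in both mutants. Its 259-nt exon (chromosome 10, 120864276 to 120864534) was at 46.1% in WT, 84.8% in R749H and 80.7% in E1126G cells in the authors' deposited tables. Both mutants were well above WT, with log2 changes of 2.71 (adjusted p = 3.3e-08) and 2.30 (adjusted p = 4e-05), and they did not differ from each other by the approximate test (difference 0.41 with a standard error of 0.63, adjusted p = 0.93). A neighbouring 185-nt exon, listed for R749H, went from 58.3% to 88.5% and was not called (adjusted p = 0.22).

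DENND5A, which binds RAB6, had a different exon called in each mutant. The 60-nt exon (chromosome 11, 9161736 to 9161795), included at 9.6% in WT, was at 2.5% in R749H (adjusted p = 0.0035) and 4.4% in E1126G (adjusted p = 0.24) in the authors' deposited tables. The 83-nt exon (9164950 to 9165032) was at 94.0% in WT, 92.7% in R749H (adjusted p = 0.77) and 76.6% in E1126G (adjusted p = 3.2e-05) in the authors' deposited tables. The difference between the mutants did not pass for either exon (adjusted p = 0.85 and 0.096), so these exons are not shown to respond to 1 mutant alone. The other 4 DENND5A events were at 95.8% to 99.7% in every genotype and none was called.

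Among the activating proteins, TBC1D15, which acts on RAB7, lost 2 neighbouring exons together in both mutants. Against the junction that skips both, the 139-nt exon (chromosome 12, 72274249 to 72274387) was at 98.6% in WT, 91.0% in R749H and 91.1% in E1126G cells in the authors' deposited tables. Against the same junction the 211-nt exon (72278591 to 72278801) was at 97.1% in WT, 82.8% in R749H and 83.0% in E1126G. The log2 changes were -2.75 and -2.74 for the 139-nt exon (adjusted p = 0.0011 and 0.0030) and -2.77 and -2.76 for the 211-nt exon (adjusted p = 0.0025 and 0.0060), in R749H and E1126G in that order. The E1126G call of the 211-nt exon was lost with the Benjamini-Yekutieli adjustment. Because these 2 events share the reads of 1 skipping junction, they are not separate observations. Against junctions that skip 1 exon alone, the 139-nt exon was at 98.5%, 95.7% and 96.0% and the 211-nt exon at 95.2%, 92.8% and 94.6% in WT, R749H and E1126G, and none of these 4 changes was called (adjusted p = 0.077 to 0.92). A 127-nt exon further downstream rose from 2.7% to 8.6% in R749H (adjusted p = 0.019), a call also lost with the Benjamini-Yekutieli adjustment.

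**Figure D3:**
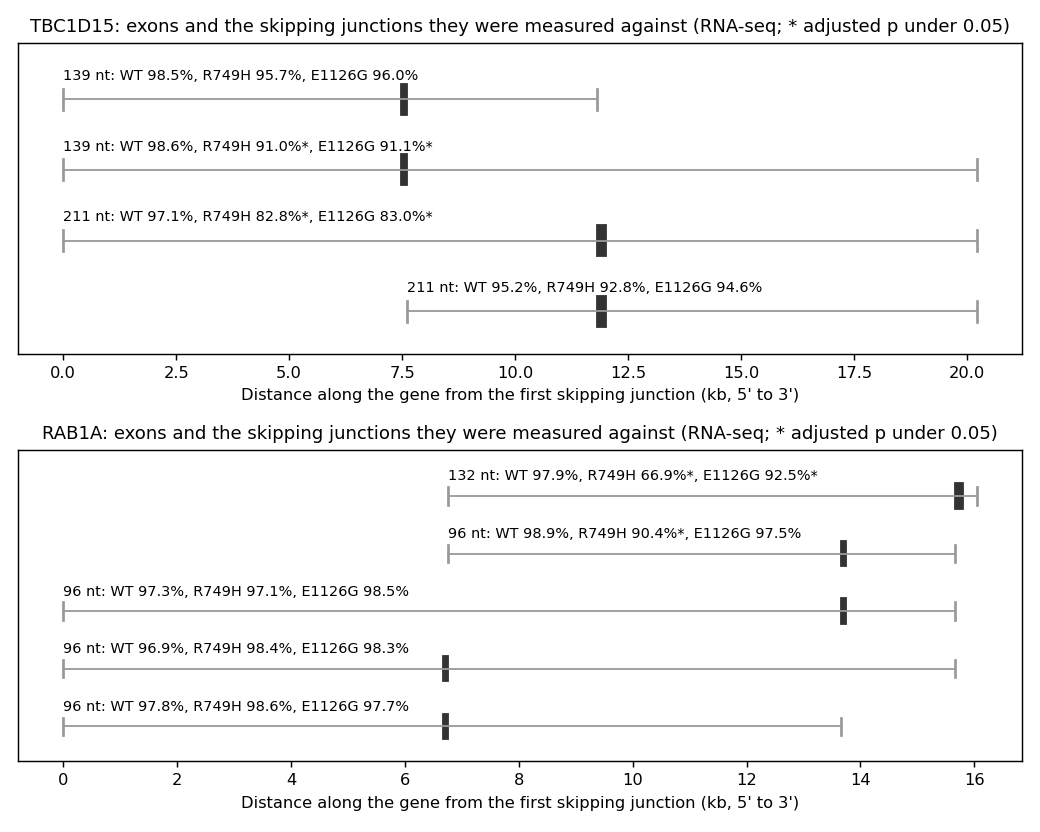
Position of TBC1D15 and RAB1A exons (black boxes) within the gap of the skipping junction each was measured against (grey lines), in kb along the gene from 5′ to 3′, with RNA-seq inclusion in each genotype and an asterisk where the adjusted p was under 0.05. In TBC1D15 the called changes are those against the junction that skips both exons, and in RAB1A the called exons are adjacent.

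In TBC1D22B a 115-nt exon (chromosome 6, 37259019 to 37259133) was at 90.5% in WT, 51.4% in R749H and 87.7% in E1126G cells in the authors' deposited tables. The R749H log2 change was -3.17 (adjusted p = 4.0e-04) and E1126G lay close to WT (adjusted p = 0.89), but the difference between the mutants did not pass (adjusted p = 0.31). A 45-nt exon of TBC1D23, which captures endosome-derived vesicles at the Golgi, was at 91.0% in WT, 71.3% in R749H and 83.5% in E1126G in the authors' deposited tables, called in R749H (adjusted p = 0.0016) and not in E1126G (adjusted p = 0.40). The 283-nt exon of RABGAP1L (chromosome 1, 174927028 to 174927310) had the widest fall of any called member on RNA-seq, from 58.3% to 10% in R749H (log2 change -3.66, adjusted p = 0.029). Its E1126G value was lower still, at 8.3%, but was not called (adjusted p = 0.11), and the R749H call was lost with the Benjamini-Yekutieli adjustment. The WT and mutant levels of this exon are fractions of small whole numbers, so they may rest on few reads, and the width of the fall is uncertain.

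RAB3IP and RAB5IF, both partners, completed the R749H calls on RNA-seq. The 100-nt exon of RAB3IP (Rabin8, the exchange factor for RAB8) was at 99.5% in WT, 96.0% in R749H (adjusted p = 0.011) and 98.5% in E1126G (adjusted p = 0.61) in the authors' deposited tables, and its R749H call was lost with the Benjamini-Yekutieli adjustment. A 111-nt exon of RAB5IF was at 8.5% in WT, 19.7% in R749H (adjusted p = 0.0012) and 11.6% in E1126G (adjusted p = 0.54). Against a longer skipping junction it was at 60.6%, 77.1% and 59.4% and was not called. This gene shares sequence with the readthrough gene TGIF2-RAB5IF, to which its reads could also belong.

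When R749H and E1126G were compared with each other on RNA-seq, 1 of 85 member events differed, against 1.74% of all events. This was the 132-nt RAB1A exon, lower in R749H, with a difference of R749H minus E1126G of -2.62 on the log2 scale (standard error 0.77, adjusted p = 0.040, and 0.41 with Benjamini-Yekutieli). The test is approximate, since its errors were inferred from the authors' p-values, and 9 of the 85 had an unadjusted p under 0.05. The next in order were RAB35 (difference 3.74, adjusted p = 0.062), RAB28 (difference -1.96, adjusted p = 0.067) and the 83-nt exon of DENND5A (difference 1.96, adjusted p = 0.096).

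On RASL-seq the clearest member was RAB6A, the Rab of retrograde transport to and through the Golgi. Its 106-nt exon (chromosome 11, 73429658 to 73429763, minus strand) was at 96.9% in WT, 87.5% in R749H, 35.5% in H1106Y and 94.3% in E1126G cells in the authors' deposited tables. All 3 mutants were below WT, with log2 changes of -2.18, -5.84 and -0.92 (adjusted p = 3.6e-18, 6.2e-145 and 5.5e-04). Each mutant also differed from the others. R749H was above H1106Y by 3.66 (standard error 0.33, adjusted p = 1.5e-26). The difference was -4.92 for H1106Y minus E1126G (adjusted p = 2.3e-47) and -1.25 for R749H minus E1126G (adjusted p = 0.0016). The gene is known to make a pair of protein forms from alternative exons, and whether this exon is one of them was not established from the files. RAB6A had no row in the RNA-seq tables.

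RAB9A, which returns receptors from late endosomes to the Golgi, moved in opposite directions in 2 mutants. The 89-nt exon (chromosome X, 13721933 to 13722021) was at 57.3% in WT, 57.4% in R749H, 78.6% in H1106Y and 37.6% in E1126G cells in the authors' deposited tables. The log2 change was 1.45 in H1106Y (adjusted p = 6e-13), -1.15 in E1126G (adjusted p = 2.2e-15) and near 0 in R749H (adjusted p = 0.99). H1106Y was above E1126G by 2.61 (standard error 0.24, adjusted p = 6.9e-26), and R749H minus H1106Y was -1.45 (adjusted p = 7.9e-07). In RNA-seq the same exon was at 81.1% in WT, 71.3% in R749H and 70.7% in E1126G, lower in both mutants without being called (adjusted p = 0.093 and 0.14).

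**Figure D4:**
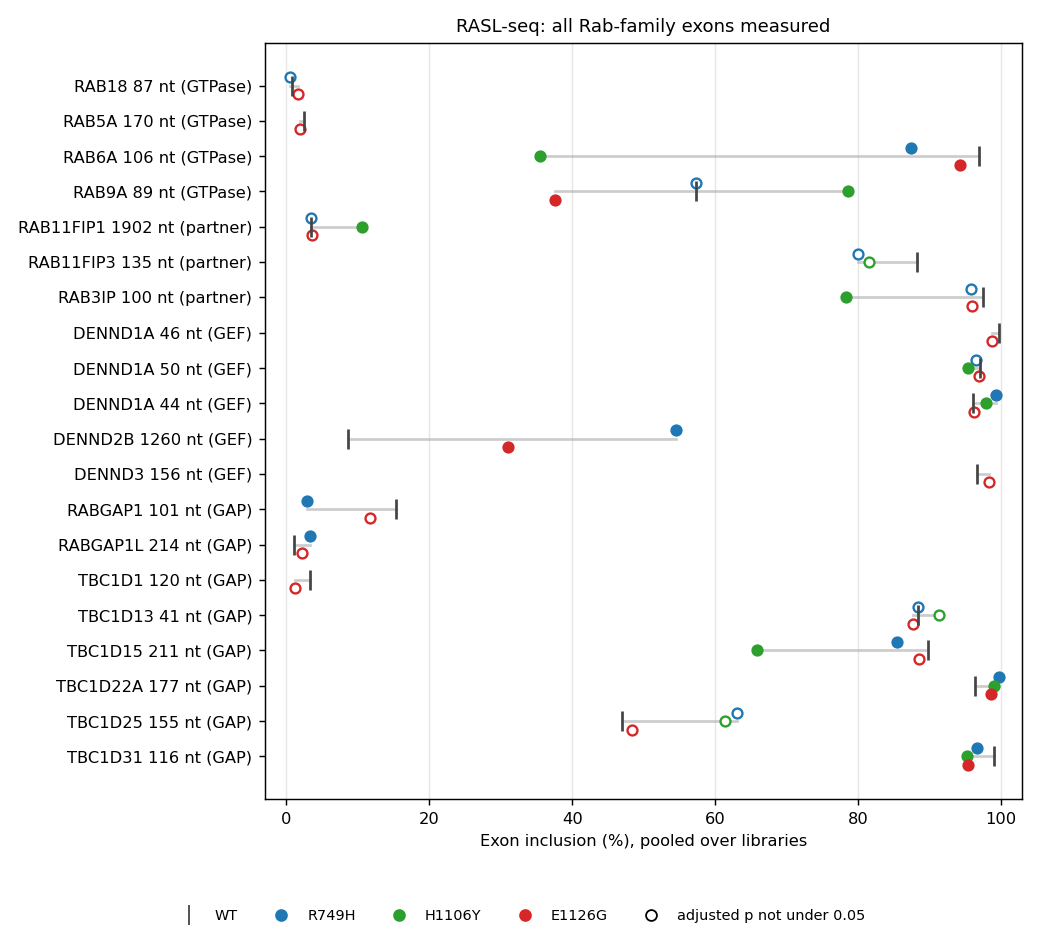
Inclusion in percent of all 20 Rab-family exon events listed on RASL-seq, with WT as a bar and each mutant as a circle, filled where the adjusted p was under 0.05. A missing circle means that the event is not listed for that mutant. RAB6A is lowest in H1106Y, RAB9A lies on either side of WT in H1106Y and E1126G, and DENND2B is above WT in both mutants listed.

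DENND2B, an exchange factor for RAB13, gained a long exon. The 1260-nt exon (chromosome 11, 8751497 to 8752756, minus strand) was at 8.6% in WT, 54.5% in R749H and 31.0% in E1126G cells on RASL-seq in the authors' deposited tables, and it is not listed for H1106Y. The log2 changes were 3.67 (adjusted p = 0.0028) and 2.24 (adjusted p = 0.011), and the 2 mutants did not differ by the approximate test (difference 1.42, standard error 1.35, adjusted p = 0.46). The E1126G call was lost with the Benjamini-Yekutieli adjustment. On RNA-seq the exon stood far higher in WT, at 77.3%, and was at 97.0% in R749H and 86.2% in E1126G. The RNA-seq log2 change in R749H was 3.23, close in size to that on RASL-seq, with an unadjusted p of 0.021 and an adjusted p of 0.11, and that in E1126G was 0.88 (adjusted p = 0.77).

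DENND1A, an exchange factor for RAB35, had 2 called exons, both near complete inclusion. The 44-nt exon (chromosome 9, 126554866 to 126554909) was at 96.1% in WT, 99.3% in R749H (adjusted p = 1.6e-22), 97.9% in H1106Y (adjusted p = 1.4e-04) and 96.3% in E1126G (adjusted p = 0.67) in the authors' deposited tables. It was higher in R749H than in H1106Y by 1.71 (adjusted p = 4.5e-06) and than in E1126G by 2.53 (adjusted p = 1.5e-15) on the log2 scale. The adjacent 50-nt exon fell from 97.0% to 95.4% in H1106Y (adjusted p = 0.049), a call lost with the Benjamini-Yekutieli adjustment.

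Of the activating proteins on RASL-seq, TBC1D22A and TBC1D31 were called in all 3 mutants, as RAB6A was. The 177-nt exon of TBC1D22A rose from 96.4% in WT to 99.7% in R749H, 99.0% in H1106Y and 98.6% in E1126G in the authors' deposited tables, with log2 changes of 3.49, 1.90 and 1.42 (adjusted p = 5.4e-20, 8.5e-06 and 7.5e-09). R749H was above both other mutants (difference 1.59 from H1106Y, adjusted p = 0.011, and 2.07 from E1126G, adjusted p = 1.8e-05), although the difference from H1106Y was lost with the Benjamini-Yekutieli adjustment (adjusted p = 0.091). The 116-nt exon of TBC1D31, a protein of centriolar satellites, stood at 99.0% in WT in the authors' deposited tables and fell to 96.6% in R749H (adjusted p = 1.9e-05), 95.2% in H1106Y (adjusted p = 4.2e-05) and 95.4% in E1126G (adjusted p = 4.8e-11). These are differences of a few percentage points at the top of the scale.

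The 211-nt exon of TBC1D15, measured on RASL-seq against the junction that skips it alone, was at 89.8% in WT, 85.5% in R749H, 65.8% in H1106Y and 88.6% in E1126G cells in the authors' deposited tables. R749H (adjusted p = 0.0025) and H1106Y (log2 change -2.19, adjusted p = 1.5e-45) were called and E1126G was not (adjusted p = 0.17). R749H was above H1106Y by 1.62 (adjusted p = 2.0e-11), and H1106Y minus E1126G was -2.01 (adjusted p = 1.5e-25). RABGAP1, an activating protein for RAB6, had a 101-nt exon that fell from 15.4% to 3.0% in R749H (adjusted p = 2.1e-04) and stood at 11.8% in E1126G (adjusted p = 0.48), and the difference between the 2 mutants was -2.13 (adjusted p = 0.028, and 0.23 with Benjamini-Yekutieli). A 214-nt exon of RABGAP1L rose from 1.1% to 3.4% in R749H (adjusted p = 0.0091), a call lost with the Benjamini-Yekutieli adjustment.

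Of the partner exons on RASL-seq, 2 of 3 were called in H1106Y, 0 of 3 in R749H and 0 of 2 in E1126G. The exon not called in H1106Y was the 135-nt exon of RAB11FIP3, at 88.2% in WT, 80% in R749H and 81.6% in H1106Y (adjusted p = 0.45 and 0.49). The 100-nt RAB3IP exon was at 97.4% in WT, 95.8% in R749H, 78.3% in H1106Y and 96.0% in E1126G in the authors' deposited tables. The H1106Y log2 change was -3.40 (adjusted p = 2.1e-19), R749H was above H1106Y by 2.66 (adjusted p = 4.7e-06), and H1106Y minus E1126G was -2.73 (adjusted p = 3.3e-07). With rows of the same exon collapsed to the row of largest p, 8 member calls remained in H1106Y, and the RAB3IP call was not among them. No other member row lists this exon in H1106Y, so the row kept was under another Ensembl identifier, outside the members. Whether the signal belongs to RAB3IP alone was not established. The 1902-nt exon of RAB11FIP1, an effector of RAB11, was at 3.4% in WT, 3.5% in R749H, 10.6% in H1106Y (adjusted p = 2.6e-08) and 3.6% in E1126G in the authors' deposited tables. R749H minus H1106Y was -1.71 (adjusted p = 4.2e-04), and H1106Y was above E1126G by 1.67 (adjusted p = 2.7e-04). On RNA-seq this exon stood at 29.2% in WT and was called in neither R749H (44.4%) nor E1126G (41.7%).

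In the direct comparisons on RASL-seq, 5 of 15 member events differed between R749H and E1126G (33.8% of all events), 7 of 12 between R749H and H1106Y (41.5%) and 6 of 11 between H1106Y and E1126G (49.2%). H1106Y held the lowest inclusion of the 3 mutants for RAB6A, RAB3IP and TBC1D15 and the highest for RAB9A and RAB11FIP1. H1106Y was not measured by RNA-seq, so these values rest on 1 assay.

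The same exon, with the same skipping junction, was listed by both assays for 11 member events of R749H and 12 of E1126G. The log2 changes had the same sign in 8 of 11 and 8 of 12, against 74.0% and 73.7% of all shared events. None of these was called in both assays, while 276 of 1648 and 178 of 1674 shared events were. For R749H, 4 were called on RASL-seq alone (DENND2B, DENND1A, TBC1D15 and TBC1D31) and 1, RAB3IP, on RNA-seq alone, and all 5 had the same sign in both assays. For E1126G the RASL-seq calls were DENND2B, RAB9A and TBC1D31. TBC1D31 had opposite signs, with a log2 change of -2.28 on RASL-seq and 0.74 on RNA-seq (adjusted p = 0.80), in the authors' deposited tables.

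**Figure D5:**
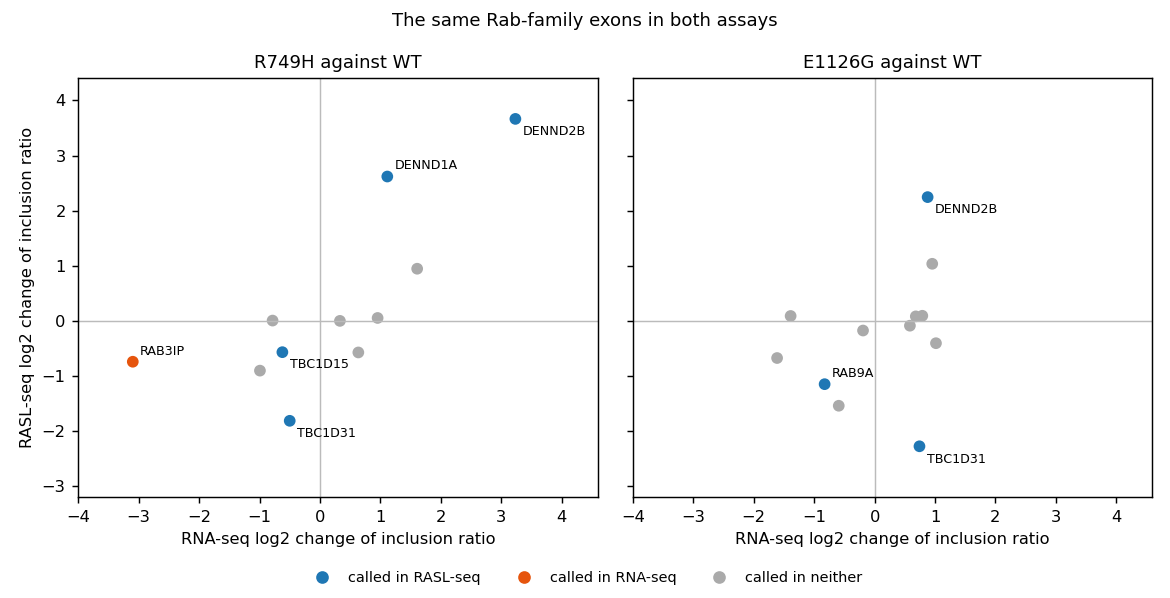
Log2 change of the inclusion ratio on RNA-seq (horizontal) and RASL-seq (vertical) for the same Rab-family exons, 11 for R749H and 12 for E1126G. Colour gives the assay in which the exon was called, and called exons are named. DENND2B lies in the upper right in both panels, and TBC1D31 changes sides between assays in E1126G.

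Most member events were not called in a given table, and some of these still moved widely. In R749H RNA-seq the 81 uncalled events moved by a median of 2.29 percentage points in size, and 10 moved by at least 10 points. These included 2 overlapping exons of DENND6B, at 69.2% and 71.4% in WT and 95.2% and 94.7% in R749H (adjusted p = 0.19 and 0.29), and a 118-nt exon of TBC1D5, which went from 30.8% to 11.1% (adjusted p = 0.30). Such changes were not detectable by these tests and are not shown to be absent. On RASL-seq the 155-nt exon of TBC1D25 was at 47% in WT, 63.0% in R749H (adjusted p = 0.054), 61.4% in H1106Y (adjusted p = 0.19) and 48.4% in E1126G (adjusted p = 0.89). The exons of RAB7A, RAB10, RAB1B, RAB23 and RAB24 were at 94.2% to 99.8% in WT, R749H and E1126G, and none was called.

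Other genes of the Rab pathway, from a list of 84 that the naming rule leaves out (GDP dissociation inhibitors, prenylation enzymes, TRAPP subunits, tethers and effectors), were counted in the same way. On RNA-seq 15 of 93 events changed in R749H (16.1%, against 15.1% of all events), 10 higher and 5 lower, and 7 of 92 in E1126G (7.61%, against 6.48%), 2 higher and 5 lower. On RASL-seq 7 of 22 changed in R749H, 5 higher and 2 lower (31.8%, against 44.1% of all events). In H1106Y 10 of 19 changed, 4 higher and 6 lower (52.6%, against 61.9%), and in E1126G 7 of 20, 2 higher and 5 lower (35%, against 47.5%). An 18-nt exon of TRAPPC13, a subunit of the TRAPP exchange factor complex, fell from 85.1% to 45.1% in R749H (adjusted p = 6.5e-10), and an 81-nt exon of the Golgi tether GOLGA2 from 59.4% to 20.0% in E1126G (adjusted p = 0.0055), on RNA-seq in the authors' deposited tables. On RASL-seq a 78-nt exon of DNM1L, the mitochondrial fission dynamin that the list also held, rose from 48.3% to 75.5% in R749H and, against another skipping junction, from 52.3% to 88.2% in H1106Y. The largest called change of the list in E1126G on RASL-seq was in RIMS2, from 58.2% to 66.2% (adjusted p = 0.0028).

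Some of these genes have near-identical copies. Pseudogenes named for RAB1A, RAB5C, RAB9A, RAB11FIP1, RAB28 and DENND10 are in the name table, and RAB6A has the related retrocopies RAB6C and RAB6D, so reads or probes could be shared and the levels of these genes are uncertain to that extent. The 100-nt RAB3IP exon was also listed under an identifier outside the members in H1106Y on RASL-seq, so the same limit holds for it. No source used here says whether reads were counted by strand.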

How the data were processed

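Per the labels' protocols, RNA-seq reads of each replicate were mapped individually with TopHat 1.4.1, and the submitters' processing notes also name Bowtie 0.12.7, edgeR 3.7.17 and GRCh37 without giving their roles. The authors deposited comparison tables without values per library. Each exon row holds a natural log of the WT inclusion ratio, the log2 fold by which that ratio differs in the mutant, and a p-value, all made by the authors. The R749H tables were identified from the sample labels that list them. The log base was checked: read as natural logs, 62.9% to 94.4% of WT ratios were fractions of whole numbers (denominators no larger than 300, within 1e-09 of the value), against at most 0.396% with log2.

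Inclusion was computed as 100 times the ratio over 1 plus the ratio. Benjamini-Hochberg adjustment of the deposited p-values ran over each whole table (Python 3.11.15, SciPy 1.17.1), with calls at 0.05. Mutants were compared by an approximate two-sided z, with errors implied by the deposited p-values and added in quadrature. WT is shared, so these errors are too large if the implied errors hold. Procedures were tested on simulated data. Events with no implied error were left out (31 of RNA-seq, at most 2 of RASL-seq). Symbols were matched for 6778 of 6976 Ensembl identifiers. The members and lists were chosen with earlier results of these data known. Named were, in each comparison, the 5 called events with the largest rise and fall, all events of RAB6A and DENND2B, those called in every comparison of an assay, those called in opposite directions by mutants that differ, and the largest change of the other pathway genes. RAB18, the 96-nt RAB1A, 60-nt DENND5A and 100-nt RAB3IP calls and the uncalled exons were named after their values were seen. Intron tables and GRO-seq were not used here.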

Additional observations from a re-analysis of the deposited data

Results flagged for a closer look

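The 89-nt exon of RAB9A was called in opposite directions by 2 mutants on RASL-seq. H1106Y was above E1126G by 2.61 on the log2 scale (approximate z test, standard error 0.24, adjusted p = 6.9e-26), with inclusion of 78.6% and 37.6% around a WT level of 57.3%. On RNA-seq, which had no H1106Y, neither mutant was called: WT was at 81.1%, E1126G at 70.7% (adjusted p = 0.14) and R749H at 71.3% (adjusted p = 0.093). R749H was thus below WT on RNA-seq, but on RASL-seq it was at 57.4%, level with the WT of that assay (57.3%). No other member exon was called in opposite directions by 2 mutants.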

How the results depend on the processing

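No paired analysis was possible because the tables hold no value per library, and leaving out a replicate could not be run for the same reason. With events of 5% to 95% WT inclusion alone, called members numbered 7 and 2 on RNA-seq in R749H and E1126G, and 3, 2 and 2 on RASL-seq in R749H, H1106Y and E1126G, since most members lie outside that range. With at least 10 points of change required, these counts were 9, 3, 2, 4 and 2 in the same order. In E1126G RNA-seq the count of 7 became 4 with the Benjamini-Yekutieli adjustment and 4 with rows of the same exon collapsed, and in E1126G RASL-seq the count of 5 became 9 at a threshold of 0.1. Between R749H and E1126G on RNA-seq, the count of 1 became 0 at 0.01 and 0 with Benjamini-Yekutieli, and 4 at 0.1. On RASL-seq, with 5% to 95% WT inclusion, 2 members differed in each of the 3 pairs. The share of calls that were higher rests on 5 to 15 main calls, and on fewer in some of these settings. In E1126G RNA-seq it moved from 14.3% to as much as 50%, on 2 calls at 5% to 95% WT inclusion. In H1106Y it moved from 44.4% to as little as 25%, on 4 calls with at least 10 points of change. This share is therefore not precise. With Benjamini-Yekutieli 9 of the 44 calls against WT and 4 of the 19 between mutants were lost, among the latter the 44-nt DENND1A exon in H1106Y against E1126G. Depth is unknown, so an uncalled change may be one these tables could not detect.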
